A study of Mus musculus with 8 samples.

Results

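Collagens, laminins, integrins and 14 other genes of the extracellular matrix were examined in ribosome-bound RNA from the Müller glia of the retina. Members were the genes of the deposited table whose symbol is that of a collagen chain, a laminin chain or an integrin subunit, or is one of 18 listed matrix symbols. There were 49 members among 12339 genes: 22 collagens, 5 laminins, 8 integrins and 14 of the 18 listed genes. Dcn, Lox, Nid2 and Tgfbi were not analysed here, and Col4a3bp, Itgb1bp1 and Itgb3bp, whose names only resemble those of members, were left out. Retinas came from mice at postnatal day 14 of oxygen-induced retinopathy, in which pups breathe high oxygen and then room air, so that the inner retina lacks oxygen and new vessels grow. The groups were 4 libraries of a Müller cell-specific Nrf2 conditional knockout (cKO) and 4 wild-type (WT) libraries, numbered 1, 3, 4 and 5 in each, and all 8 were from retinopathy. RiboTag marks the ribosomal protein Rpl22 in cells that carry Cre. The driver of Cre, the deleted exon, the sex and the number of animals behind a library are not given in the sources used here, so p-values measure the spread between these libraries.

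Müller cells span the retina, and their endfeet rest on the inner limiting membrane, the basement membrane between retina and vitreous. Such membranes are built from laminin trimers and a type IV collagen network, joined by nidogen and by the heparan sulfate proteoglycans perlecan and agrin. Integrins, heterodimers of an alpha and a beta subunit, bind this matrix from the cell side, and retinal astrocytes and vessels grow along it. Nrf2 is a transcription factor that activates antioxidant genes by binding a short DNA element.

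Nfe2l2, the gene of Nrf2, was at 12.7, 16.5, 14.8 and 10.4 FPKM (fragments per kilobase of transcript, scaled to library size) in cKO libraries 1, 3, 4 and 5, against 17.5, 18.8, 23.1 and 17.5 FPKM in WT libraries. Every cKO value lay below every WT value, and the log2 difference was −0.50 (SE 0.10, limma adjusted p = 0.0219 with the replicate block and 0.453 without it). It passed without pair 3 (adjusted p = 0.0182) and in none of the other 3 fits without a pair (adjusted p from 0.0634 to 0.0846). The summed FPKM was between 414733 and 448130 in cKO libraries and between 410581 and 443749 in WT libraries. All 10 Müller cell markers on a fixed list were measured, with a sum of 7047 to 10063 FPKM in cKO and 6831 to 11520 FPKM in WT. Of them 7 were lower in cKO (median −0.12), and 2 passed as lower by the blocked fit below: Aqp4, the water channel of the endfeet (−0.35, adjusted p = 0.0346), and Abca8a (−0.36, adjusted p = 0.0418). Rod markers (6 of 6 measured) summed to 2769 to 4332 FPKM in cKO and 2599 to 4114 FPKM in WT, so RNA of other cells was present. Of 15 endothelial markers 4 were measured, and Pecam1, Cdh5, Cldn5, Tek and Tie1 were not among the 12339 genes, whose lowest mean was 2.0 FPKM. The sum of the 4 was 169 to 227 FPKM in cKO and 185 to 269 FPKM in WT. Of 11 pericyte and smooth muscle markers 3 were measured (Pdgfrb, Rgs5 and Tagln), with a sum of 52.7 to 63.1 FPKM in cKO and 33.3 to 46.8 FPKM in WT. Most of this sum was Rgs5, with a mean of 38.0 FPKM, against 6.30 FPKM for Pdgfrb and 5.39 FPKM for Tagln. By the blocked fit below Rgs5 passed as higher (0.76, adjusted p = 0.00277). Pdgfrb was lower in 4 of 4 pairs (−0.25, adjusted p = 0.183) and Tagln higher in 3 (0.56, adjusted p = 0.0742), and neither passed. Cspg4, Acta2, Kcnj8 and Notch3 were not among the genes. Astrocyte markers (6 of 8 measured, 2 of them higher in cKO by the blocked fit below) summed to 698 to 1024 FPKM in cKO and 510.4 to 915 FPKM in WT. The 2 were Gfap (1.35, adjusted p = 0.00521) and S100b (0.44, adjusted p = 0.0467). The highest of the 6 was Aldoc, with a mean of 458 FPKM and a difference of 0.03. Ganglion cell markers (6 of 7, 3 lower) summed to 46.4 to 66.1 FPKM in cKO and 64.2 to 85.8 FPKM in WT. Bipolar cell markers (6 of 6, 2 higher) summed to 846 to 973 FPKM in cKO and 666 to 871 FPKM in WT. Of 12 microglia and macrophage markers 1 was measured. The part of these cells in the results below was not tested. Xist, the RNA of the inactive X chromosome, was at 25.0, 50, 0.0863 and 0.00505 FPKM in cKO libraries and between 27 and 72.1 FPKM in WT libraries, so cKO libraries 4 and 5 stood apart. Pairs 4 and 5 of the blocked fit below thus set a cKO library almost without Xist against a WT library with it. In these pairs sex and genotype cannot be told apart.

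The difference between the groups was small for most members, and those called in the blocked fit over all libraries were lower in cKO. Other settings, given below, called Bgn or Spock2 as higher. Values were compared as log2(FPKM + 0.5) with limma over all genes, as cKO minus WT, with Benjamini-Hochberg adjustment and a threshold of 0.05. In the main fit, without the library number as a block, 0 of 49 members passed, as did 0% of all genes. At an unadjusted p under 0.05 there were 5 members, or 10.2%, where all genes gave 10.6%. An alternative fit took the number as a replicate block, because equal numbers paired the samples by a set rule on correlations in these same data. In this blocked fit 5 of 49 members passed: Col7a1, Col6a1, Agrn, Itga4 and Col18a1. This was 10.2% of members against 10.6% of all genes, a share near the background. All 5 were lower in cKO, and 7.59% of all genes were called lower. Below, "fell" means this call of the alternative fit. RNA of other cells was present in these libraries, so a smaller share of a cell type and less RNA per cell cannot be told apart.

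The direction was less even than the calls. Of the 49 members 40 had a negative difference (81.6%), against 49.3% of all genes. The median was −0.18 over members and 0.00 over all genes on the log2 scale. Of the collagens 21 of 22 were below 0, as were 5 of 5 laminins and 8 of 8 integrins, against 6 of the other 14 matrix genes. The medians were −0.22 for collagens, −0.25 for laminins, −0.10 for integrins and 0.03 for the other matrix genes. These directions rested in part on cKO library 5, without which 29 of 49 members were below 0 (59.2%, against 51.1% of all genes) with a median of −0.08. With the mean of TEC and sense intronic genes, a class described below, as a covariate, 27 members were below 0 (55.1%, against 51.8% of all genes), and the medians were −0.04 over members, −0.11 for collagens, −0.00025 for laminins and −0.06 for integrins. In 12 members (24.5%) cKO was lower in all 4 pairs, where all genes gave 19.5%, and in 2 members (4.08%) it was higher in all 4, where all genes gave 16.7%. These 2 were Col1a2 and Spock2. In 0 members did the values of the groups stay apart without overlap, which 4.34% of all genes did.

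**Figure D1:**
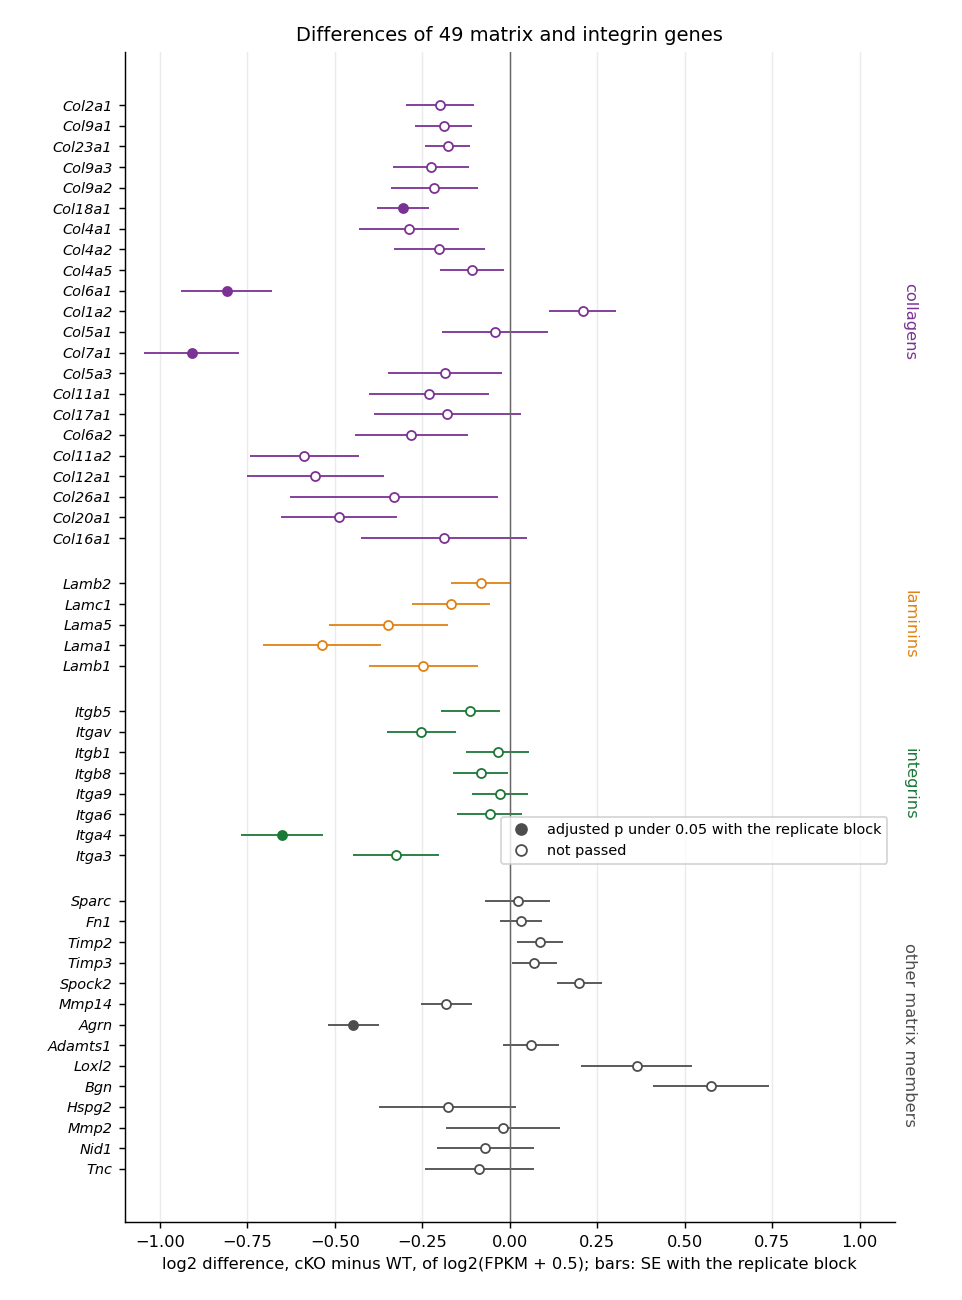
Log2 difference between cKO and WT (horizontal axis, of log2(FPKM + 0.5)) for the 49 members, grouped by family and ordered by level within it. Bars are the SE of the fit with the replicate block, and filled points passed the threshold. The 5 filled points lie between −0.91 and −0.30, and 40 of 49 points lie left of 0.

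Col7a1, the chain of the anchoring fibril collagen that ties basement membranes to the tissue beneath, had the largest fall among members. It was at 2.39, 4.24, 2.10 and 0.693 FPKM in cKO libraries 1, 3, 4 and 5, against 5.0, 7.62, 3.96 and 2.17 FPKM in WT libraries. The groups overlapped, but within each number the cKO library was lower. The gene spans chr9:108953586-108984875 on the plus strand (GRCm38), and its mean was 2.36 ± 1.46 FPKM in cKO and 4.69 ± 2.28 FPKM in WT (SD, 4 libraries each). On the log2 scale it differed by −0.91 (SE 0.14, limma adjusted p = 0.00760 with the block and 0.478 without it). It passed without any 1 of the 4 pairs, with adjusted p from 0.0214 to 0.0435.

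Col6a1, a chain of the beaded microfibril collagen found at cell surfaces, was at 4.57, 9.46, 4.78 and 3.11 FPKM in cKO libraries, against 10.1, 12.2, 9.03 and 6.58 FPKM in WT libraries. Only cKO library 3 reached into the WT range. The gene spans chr10:76708792-76726168 on the minus strand (GRCm38), and its mean was 5.48 ± 2.76 FPKM in cKO and 9.47 ± 2.34 FPKM in WT (SD, 4 libraries each). The difference was −0.81 (SE 0.13, adjusted p = 0.00979 with the block and 0.453 without it), and it did not pass without pair 1 (adjusted p = 0.0554). Its partner chain Col6a2 was at 1.78, 3.40, 2.98 and 1.27 FPKM in cKO libraries, against 2.67, 3.62, 2.97 and 2.13 FPKM in WT libraries, with broad overlap (−0.28, adjusted p = 0.292 with the block). The ratio of Col6a1 to Col6a2 was 1.60 to 2.78 in cKO libraries and 3.04 to 3.77 in WT libraries, without overlap. It was 1 of 8 ratios, of partner genes or of alternative beta chains, chosen after the values were seen. This ratio had an exact two-sided permutation p of 0.0286, the smallest that 70 assignments allow, and 0.229 adjusted over the 8. It was lower in cKO in 4 of 4 pairs, and an exact test that flips the sign of the pair differences gave p = 0.125, the smallest that 4 pairs allow.

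Agrn, the gene of agrin, was at 45.4, 52.3, 40.3 and 30.7 FPKM in cKO libraries, against 57.0, 65.5, 56.9 and 48.5 FPKM in WT libraries. Only cKO library 3 lay above the lowest WT library. The gene spans chr4:156165290-156197488 on the minus strand (GRCm38), and its mean was 42.2 ± 9.09 FPKM in cKO and 57.0 ± 6.97 FPKM in WT (SD, 4 libraries each). The difference was −0.45 (SE 0.07, adjusted p = 0.0113 with the block and 0.453 without it), and it did not pass without pair 4 (adjusted p = 0.0532).

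Itga4, the integrin subunit that binds fibronectin and the endothelial protein VCAM-1 when paired with beta subunits, was at 4.78, 8.53, 2.62 and 3.91 FPKM in cKO libraries, against 9.49, 13.6, 4.59 and 5.10 FPKM in WT libraries. The range within each group was wider than the difference between the means, while each pair was lower in cKO. The gene spans chr2:79255426-79333123 on the plus strand (GRCm38), and its mean was 4.96 ± 2.54 FPKM in cKO and 8.19 ± 4.21 FPKM in WT (SD, 4 libraries each). The difference was −0.65 (SE 0.12, adjusted p = 0.0147 with the block and 0.519 without it). Leaving out pair 1, 3 or 4 gave adjusted p of 0.0732, 0.0571 and 0.0549, and leaving out pair 5 gave 0.0186. Its last bases overlap Cerkl on the other strand, and the strand setting of the counts is not given in the sources used here.

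Col18a1, the core of a basement membrane proteoglycan from which the fragment endostatin is cut, was at 10.7, 13.7, 13.5 and 11 FPKM in cKO libraries, against 13.2, 18.1, 15.5 and 14 FPKM in WT libraries. Its cKO libraries 3 and 4 overlapped the lowest WT library. The gene spans chr10:77052178-77166548 on the minus strand (GRCm38), and its mean was 12.2 ± 1.59 FPKM in cKO and 15.2 ± 2.13 FPKM in WT (SD, 4 libraries each). The difference was −0.30 (SE 0.07, adjusted p = 0.0399 with the block and 0.469 without it), and it passed in none of the 4 fits without a pair (adjusted p from 0.0846 to 0.140). Its 3′ end overlaps Slc19a1 on the other strand.

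**Figure D2:**
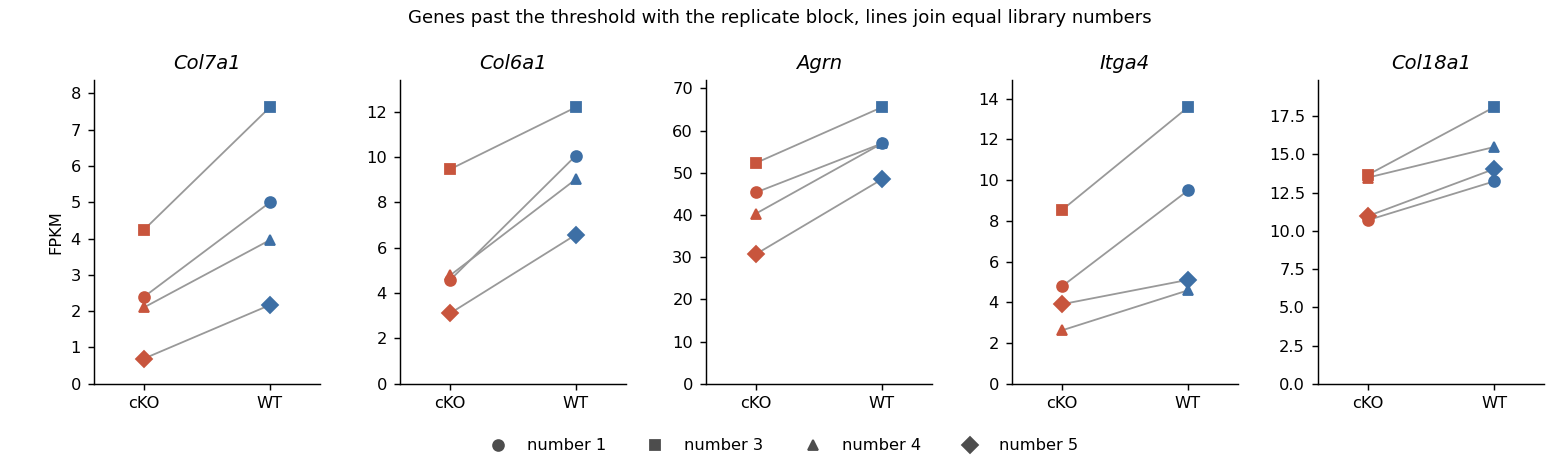
FPKM (vertical axis, from 0) of the 5 members that passed with the replicate block, in 4 cKO and 4 WT libraries. Symbols give the library number and lines join equal numbers. Each line is lower at its cKO end, while the groups overlap in each panel.

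Promoter windows of Col7a1, of Col6a1 with its partner Col6a2, and of Col4a2 are shown because the Nrf2 element was searched in them and they differ in it. RefSeq windows on GRCm38.p6, from 250 bases before to 50 after a gene start, were matched by symbol for 39 of 49 members (45 windows). The core of the element, TGACNNNGC, was searched on both strands. It was in 7 of the 45 windows (15.6%), against 12.4% of all 32851 windows: those of Col9a2, Col4a2, Itgb1, Col7a1, Itga9, Col6a2 and Timp2. A match is a description of letters and not a bound site. Capitals mark the core in Col7a1 (chr9:108953336-108953635, plus strand) and in Col6a2 (chr10:76623355-76623654, minus strand). The Col6a1 window (chr10:76725995-76726294, minus strand), another window of Col6a2 and those of Agrn, Itga4 and Col18a1 held none.
Col7a1: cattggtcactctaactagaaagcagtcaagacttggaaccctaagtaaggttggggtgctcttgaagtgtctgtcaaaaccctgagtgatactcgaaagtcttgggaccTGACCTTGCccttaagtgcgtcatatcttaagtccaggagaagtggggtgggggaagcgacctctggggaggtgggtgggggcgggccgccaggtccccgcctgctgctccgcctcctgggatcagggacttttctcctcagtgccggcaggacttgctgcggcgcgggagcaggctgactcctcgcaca
Col6a1: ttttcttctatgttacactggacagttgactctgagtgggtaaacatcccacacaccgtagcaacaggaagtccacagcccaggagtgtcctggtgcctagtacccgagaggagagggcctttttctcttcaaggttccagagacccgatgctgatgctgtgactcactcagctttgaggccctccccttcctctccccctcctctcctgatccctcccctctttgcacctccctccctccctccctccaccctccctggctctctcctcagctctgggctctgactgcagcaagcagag
Col6a2: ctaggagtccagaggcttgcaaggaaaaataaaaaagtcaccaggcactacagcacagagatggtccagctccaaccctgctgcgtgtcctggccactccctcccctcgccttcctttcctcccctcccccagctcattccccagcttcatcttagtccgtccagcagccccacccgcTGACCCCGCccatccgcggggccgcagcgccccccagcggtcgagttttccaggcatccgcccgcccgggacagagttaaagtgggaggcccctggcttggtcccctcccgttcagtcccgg
Col4a1 and Col4a2 lie head to head, and their windows share 78 bases. Capitals mark these in the window of Col4a2 (chr8:11312555-11312854, plus strand), whose element core starts at base 177 and is in lower case.
Col4a2: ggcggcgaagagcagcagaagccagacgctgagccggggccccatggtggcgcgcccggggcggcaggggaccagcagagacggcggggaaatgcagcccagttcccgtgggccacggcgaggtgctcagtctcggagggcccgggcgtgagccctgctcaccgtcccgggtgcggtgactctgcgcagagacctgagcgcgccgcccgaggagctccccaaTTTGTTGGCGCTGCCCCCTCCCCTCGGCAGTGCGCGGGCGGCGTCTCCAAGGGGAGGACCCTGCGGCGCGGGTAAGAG

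The collagens of the vitreous and of cartilage were the highest of their family in these libraries. Col2a1, the fibril-forming chain of type II collagen, was at 242, 213, 249 and 178 FPKM in cKO libraries, against 216, 259, 293 and 241 FPKM in WT libraries. Col9a1, of the type IX collagen that coats those fibrils, was at 197, 185, 250 and 199 FPKM in cKO libraries, against 197, 236, 258 and 256 FPKM in WT libraries. Both overlapped between the groups and neither passed with the block (−0.20, adjusted p = 0.223 for Col2a1, and −0.19, adjusted p = 0.172 for Col9a1). Together these 2 genes made up 63.8% to 67.7% of the summed collagen FPKM in cKO libraries and 63.7% to 69.2% in WT libraries.

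The 3 chains of type IX collagen form 1 trimer, but their RNA levels were far from equal. Col9a3 was between 34.9 and 50.6 FPKM in cKO libraries and between 41.7 and 64.2 FPKM in WT libraries. Col9a2 was between 24.9 and 35.1 FPKM in cKO libraries and between 22.1 and 40.1 FPKM in WT libraries. The level of Col9a1 was 7.12 to 8.0 times that of Col9a2 in cKO and 6.42 to 8.92 times in WT, and 4.14 to 5.56 times that of Col9a3 in cKO and 4.02 to 6.03 times in WT. The 3 genes differed by −0.23 to −0.19 and did not pass.

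The minor fibril chains were low. Col11a1, which joins type II collagen in the fibril, was between 2.33 and 3.88 FPKM in cKO and between 2.93 and 4.33 FPKM in WT. Col11a2, another such chain, was at 1.98, 2.68, 1.79 and 0.737 FPKM in cKO libraries, against 3.88, 3.95, 2.54 and 1.43 FPKM in WT libraries. It was lower in each of the 4 pairs and just missed the threshold (−0.59, adjusted p = 0.0508 with the block), and passed with the block and TPM scaling (adjusted p = 0.0480) or a pseudocount of 1 (adjusted p = 0.0495). Col5a1 and Col5a3, of type V collagen, had means of 3.5 and 3.26 FPKM in cKO and of 3.58 and 3.51 FPKM in WT. Col1a2, a chain of type I collagen, was the 1 collagen with a positive difference. It was at 5.79, 8.76, 7.49 and 6.90 FPKM in cKO libraries, against 4.82, 7.67, 5.75 and 6.64 FPKM in WT libraries (0.21, adjusted p = 0.198 with the block), with each pair higher in cKO and the groups overlapping.

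Col23a1, a collagen anchored in the cell membrane, came next among collagens in level. It was at 64.3, 58.6, 77.5 and 61.6 FPKM in cKO libraries, against 67.0, 73.3, 88.2 and 68.0 FPKM in WT libraries. The cKO library was lower in each pair, but the difference did not pass (−0.18, adjusted p = 0.119 with the block). The other members of the family were low in both groups. Col12a1, Col16a1, Col17a1, Col20a1 and Col26a1 had means of 1.80 to 2.46 FPKM in cKO and of 2.26 to 2.84 FPKM in WT. Of these, Col12a1 (−0.56, adjusted p = 0.112) and Col20a1 (−0.49, adjusted p = 0.102), both collagens that associate with fibrils, were lower in all 4 pairs.

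**Figure D3:**
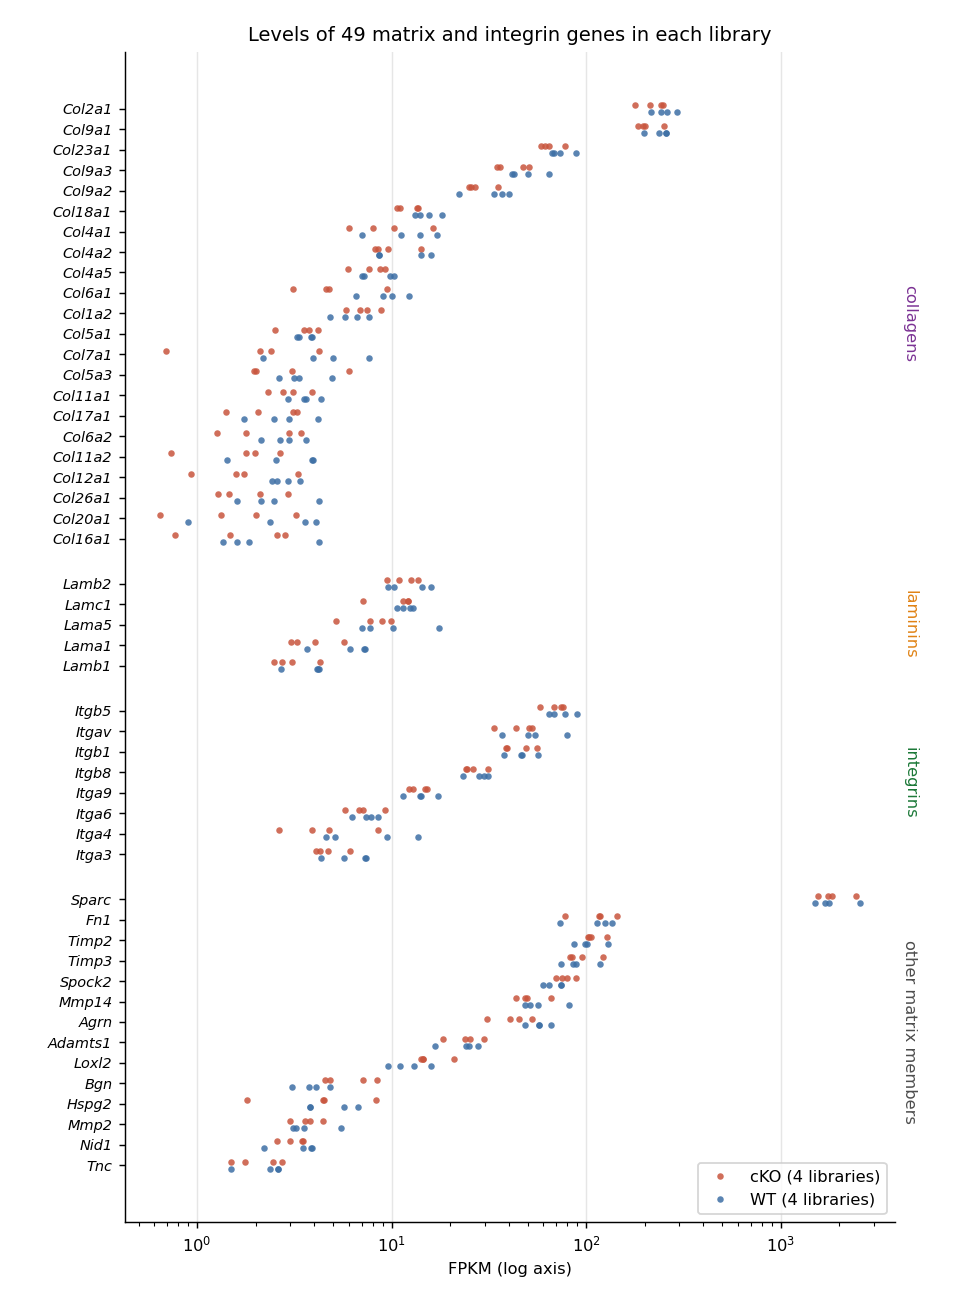
FPKM of the 49 members (horizontal log axis) in 4 cKO and 4 WT libraries, 1 point per library. Sparc lies far to the right in each library, between 1494 and 2542 FPKM, Col2a1 and Col9a1 lead the collagens, and the points of both groups overlap in every row.

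The chains of type IV collagen, the network of basement membranes, did not pass, and Col4a1 and Col4a2 followed each other. Col4a1 was at 10.3, 16.3, 7.98 and 6.04 FPKM in cKO libraries, against 17.1, 13.9, 11.2 and 7.02 FPKM in WT libraries. Col4a2, its trimer partner, was at 9.53, 14.2, 8.46 and 8.25 FPKM in cKO libraries, against 16, 14.2, 8.64 and 8.64 FPKM in WT libraries. Both were highest in library 3 among cKO and in library 1 among WT, and their ratio was 0.732 to 1.15 in cKO and 0.813 to 1.29 in WT. The differences were −0.29 (adjusted p = 0.23 with the block) and −0.20 (adjusted p = 0.346). Col4a5, an X-linked chain of another trimer, was between 5.97 and 9.27 FPKM in cKO and between 7.03 and 10.3 FPKM in WT (−0.11, adjusted p = 0.474).

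Laminins, heterotrimers of an alpha, a beta and a gamma chain, were represented by 5 chains, all at low to moderate levels. None passed with the block. Lamb2 was at 10.9, 13.6, 12.6 and 9.50 FPKM in cKO libraries, against 10.3, 15.9, 14.4 and 9.57 FPKM in WT libraries. Its level was 3.19 to 5.09 times that of Lamb1, the other beta chain, in cKO and 2.42 to 3.83 times in WT. Lamb1 was between 2.47 and 4.28 FPKM in cKO and between 2.69 and 4.24 FPKM in WT (−0.25, adjusted p = 0.340). Lamc1, the gamma chain of most laminins, was at 11.5, 12.1, 12.1 and 7.09 FPKM in cKO libraries, against 12.4, 12.9, 11.4 and 10.7 FPKM in WT libraries, and cKO library 5 stood below the other 7. Lama5 was at 7.77, 9.92, 8.89 and 5.16 FPKM in cKO libraries, against 7.06, 10.2, 17.5 and 7.72 FPKM in WT libraries, where library 4 stood above the rest.

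Lama1, the alpha chain of the early inner limiting membrane, had the largest difference among laminins. It was at 4.04, 3.26, 5.68 and 3.03 FPKM in cKO libraries, against 7.30, 7.18, 6.12 and 3.67 FPKM in WT libraries. Each pair was lower in cKO, and WT library 5 overlapped the cKO range. The difference was −0.54 (SE 0.17) and did not pass (limma adjusted p = 0.0832 with the block and 0.469 without it). Of the linkers that join laminin and collagen networks, Nid1 was between 2.59 and 3.51 FPKM in cKO and between 2.21 and 3.91 FPKM in WT (−0.07, adjusted p = 0.776). Hspg2, the gene of perlecan, was between 1.81 and 8.34 FPKM in cKO and between 3.78 and 6.74 FPKM in WT (−0.18, adjusted p = 0.591). Agrn was the highest of these 3 linkers and the only one of them that passed.

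Integrin levels were led by the alpha-v subunit and its beta partners. Itgb5 was at 74.2, 58.2, 75.8 and 68.0 FPKM in cKO libraries, against 64.6, 67.9, 89.8 and 77.6 FPKM in WT libraries. Itgav, which pairs with beta subunits to bind vitronectin and fibronectin, was at 33.7, 50.9, 52.5 and 43.6 FPKM in cKO libraries, against 36.7, 50.1, 79.2 and 54.7 FPKM in WT libraries. Itgb1, the shared partner of most laminin and collagen receptors, was at 39.2, 55.6, 49.3 and 38.7 FPKM in cKO libraries, against 37.7, 46.9, 56.3 and 46.0 FPKM in WT libraries. None of these separated the groups. The differences were −0.11 (adjusted p = 0.421), −0.25 (0.142) and −0.04 (0.831) with the block, and that of Itgb1 changed sign under other settings.

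Itgb8, a partner of alpha-v that activates TGF-beta, was between 24.1 and 31.2 FPKM in cKO and between 23.3 and 31.2 FPKM in WT (−0.08, adjusted p = 0.528). Of the laminin receptor subunits, Itga6 was between 5.77 and 9.24 FPKM in cKO and between 6.23 and 8.53 FPKM in WT (−0.06, adjusted p = 0.722). Itga3 was at 4.11, 6.10, 4.27 and 4.68 FPKM in cKO libraries, against 5.68, 7.28, 4.35 and 7.41 FPKM in WT libraries. It was lower in each of the 4 pairs without passing (−0.32, adjusted p = 0.131). Itga9, a receptor subunit for tenascin, was between 12.3 and 15.2 FPKM in cKO and between 11.5 and 17.3 FPKM in WT (−0.03, adjusted p = 0.848).

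Sparc, a secreted collagen-binding glycoprotein, was far above the other members. It was at 1739, 1826, 2446 and 1555 FPKM in cKO libraries, against 1494, 1682, 2542 and 1777 FPKM in WT libraries, and the groups overlapped fully (0.02, adjusted p = 0.897 with the block). The sign of this difference changed under other settings. Fn1, fibronectin, was at 118, 144, 117 and 77.3 FPKM in cKO libraries, against 114, 135, 125 and 73.2 FPKM in WT libraries (0.03, adjusted p = 0.768, with a sign that also changed). In both groups Fn1 was highest in library 3 and lowest in library 5. Tnc, tenascin C, was between 1.5 and 2.74 FPKM in cKO and between 1.49 and 2.60 FPKM in WT (−0.09, adjusted p = 0.751).

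Bgn and Spock2, both proteoglycans, were higher in cKO without passing. Bgn, biglycan, was at 8.44, 7.12, 4.55 and 4.83 FPKM in cKO libraries, against 4.07, 3.77, 3.08 and 4.84 FPKM in WT libraries. The 2 high values were those of the cKO libraries with Xist, and Bgn is X-linked. The WT libraries all had Xist too, with Bgn between 3.08 and 4.84 FPKM. In the libraries with Xist, without the block, the difference was 0.91 and did not pass. The part of sex in these values was not tested. Over all libraries the difference was 0.58 (SE 0.17, limma adjusted p = 0.0679 with the block and 0.453 without it), and it passed without pair 5 (adjusted p = 0.0288). Fibroblast markers (3 of 7 measured) summed to 76.0 to 97.4 FPKM in cKO and 62.0 to 80.5 FPKM in WT, and their part in this value was not tested. Spock2, testican 2, was at 79.3, 70.0, 75.1 and 88.6 FPKM in cKO libraries, against 74.4, 64.2, 59.9 and 74.3 FPKM in WT libraries. Each pair was higher in cKO (0.20, adjusted p = 0.0909 with the block).

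The 6 enzymes and inhibitors differed by −0.18 to 0.36, and none passed with the block. Timp2, an inhibitor of metalloproteinases, was at 103, 106, 128 and 102 FPKM in cKO libraries, against 86.5, 101, 129 and 99.0 FPKM in WT libraries (0.09, adjusted p = 0.422 with the block). Timp3, a matrix-bound inhibitor, was between 82.0 and 121 FPKM in cKO and between 73.9 and 118 FPKM in WT (0.07, adjusted p = 0.514). Mmp14, a membrane-bound metalloproteinase, was between 43.5 and 65.9 FPKM in cKO and between 48.3 and 81.5 FPKM in WT (−0.18, adjusted p = 0.147). The ratio of Timp2 to Mmp14 was 1.94 to 2.43 in cKO and 1.58 to 1.98 in WT, which overlapped (exact permutation p = 0.0571, and 0.229 adjusted over the 8 ratios). It was higher in cKO in 4 of 4 pairs, with an exact sign-flip p of 0.125, again the smallest possible. Mmp2, a secreted gelatinase, was between 3.0 and 4.45 FPKM in cKO and between 3.11 and 5.48 FPKM in WT. Adamts1, a protease that cleaves proteoglycans, was between 18.3 and 29.8 FPKM in cKO and between 16.7 and 27.7 FPKM in WT. Loxl2, a collagen crosslinking oxidase, was at 14.5, 21, 14.2 and 14.4 FPKM in cKO libraries, against 9.56, 11, 15.9 and 13.1 FPKM in WT libraries, with cKO library 3 above the others (0.36, adjusted p = 0.183).

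Members followed different patterns between libraries of a group. The counts of highest and lowest libraries here are of members only, without the same counts over all genes. Of the 17 members with a mean of at least 20 FPKM, 11 were highest in library 4 among cKO and 14 were highest in library 4 among WT. Library 4 also had the highest sum of Müller cell markers in both groups, 10063 FPKM in cKO and 11520 FPKM in WT. Of the 32 members below 20 FPKM, 22 were highest in library 3 among cKO and 18 among WT, and in library 5, 22 were lowest among cKO and 18 among WT. Highest in library 3 and lowest in library 5 of each group was also a class of 81 genes annotated as TEC (loci whose transcripts await experimental proof) or as sense intronic, used here as a sign of unspliced RNA. Their mean log2 value was 2.22, 2.46, 1.86 and 1.64 in cKO libraries 1, 3, 4 and 5, against 2.59, 2.76, 2.27 and 2.0 in WT libraries. It was lower in cKO by 0.29 to 0.41 in each of the 4 pairs. Col7a1, Agrn, Col11a2, Col20a1 and Tnc had their libraries in exactly this order in both groups, 5 of 49 members (10.2%) against 3.33% of all genes.

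**Figure D4:**
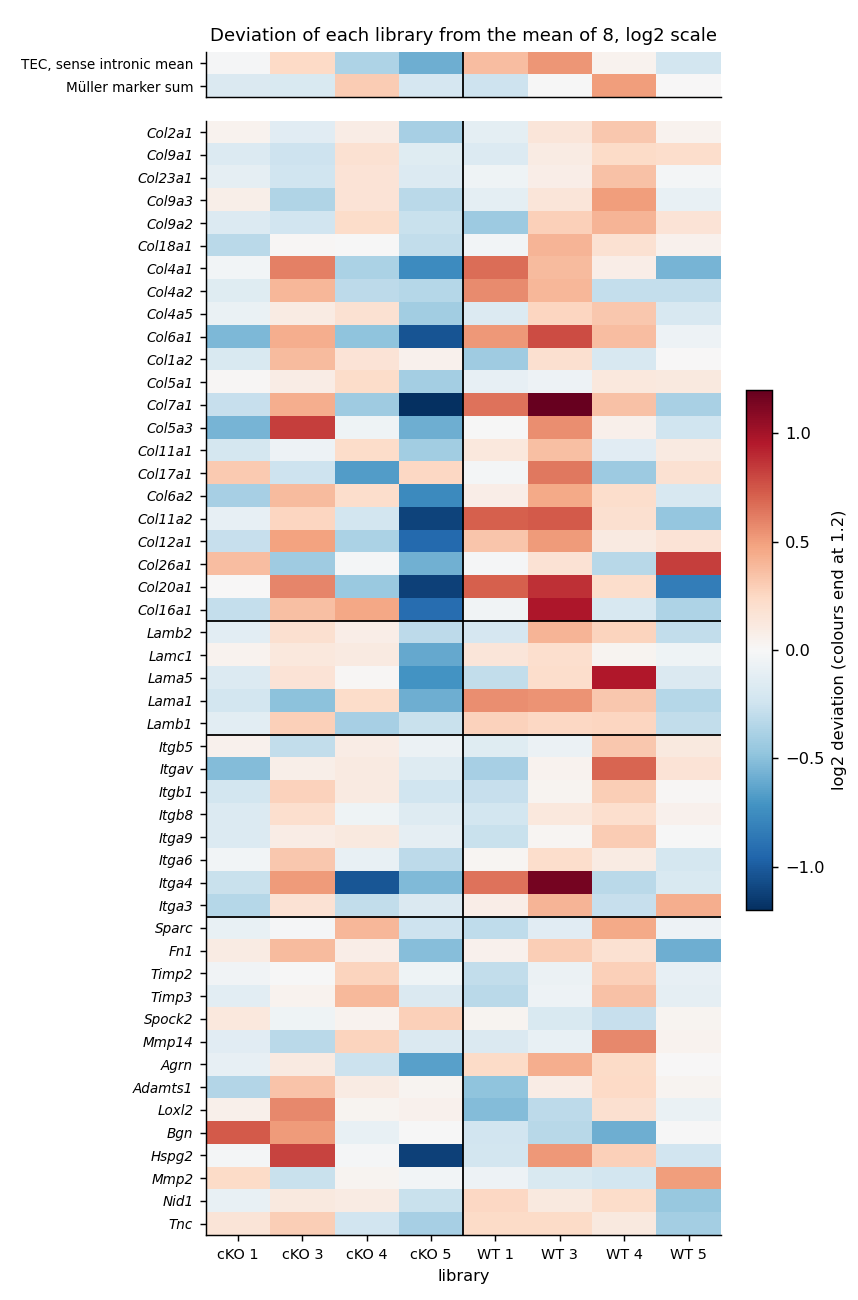
Deviation of each library from the mean of the 8 libraries on the log2 scale, for the 49 members (rows, by family) with the mean of 81 TEC and sense intronic genes and the sum of Müller cell markers above them. The 4 cKO libraries are left of the line and the 4 WT libraries right of it. Col7a1 runs with the upper row, and Mmp14 with the marker sum.

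With that mean as a covariate, without the block, the 5 genes that fell differed by −0.18 (Col7a1), −0.35 (Col6a1), −0.20 (Agrn), −0.06 (Itga4) and −0.23 (Col18a1). Without the block none of them passed with or without the covariate, so only the size of these differences can be compared. Of the 49 members 15 changed sign, among them Col4a1 (0.25), Col4a2 (0.16), Col16a1 (0.25), Col20a1 (0.26), Hspg2 (0.30) and Tnc (0.22). With the block and the covariate together, 2 residual degrees of freedom remained and the median SE of the members was 0.940, against 0.123 with the block alone, so that fit was too imprecise to separate the covariate from the groups. In it 0 members passed, 2 had an unadjusted p under 0.05 and 20 changed sign. In the 6 libraries with Xist, without the block, the same genes differed by −0.37, −0.46, −0.22, −0.20 and −0.31. The part of unspliced RNA and of sex in these falls was not tested beyond these values.

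Transcript length moved with the difference across all genes, and the members are long. The longest annotated transcript had a median of 5595 nt over members and of 3396 nt over all genes. The median difference of all genes was 0.09 for transcripts up to 2500 nt and 0.02 for those up to 4000 nt. It was −0.03 for transcripts up to 6000 nt and −0.13 above 6000 nt. The members of these classes had medians of 0.02 (1 gene), −0.15 (10 genes), −0.18 (17 genes) and −0.20 (21 genes). Above 6000 nt, 75.0% of all genes were below 0, as were 20 of the 21 members.

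After a correction for length and GC content in each library, the median of the members was −0.10 and that of all genes 0.00. With the block, 4 members then passed (8.16%, against 7.48% of all genes). Col6a1 (−0.77, adjusted p = 0.0161), Col7a1 (−0.72, adjusted p = 0.0247) and Itga4 (−0.48, adjusted p = 0.0327) were among them. In all, 35 of 49 members were below 0 (71.4%, against 49.1% of all genes), and the laminin median was −0.09. Agrn (−0.28, adjusted p = 0.0876) and Col18a1 (−0.22, adjusted p = 0.104) no longer passed, and Spock2 passed as higher (0.26, adjusted p = 0.0379).

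**Figure D5:**
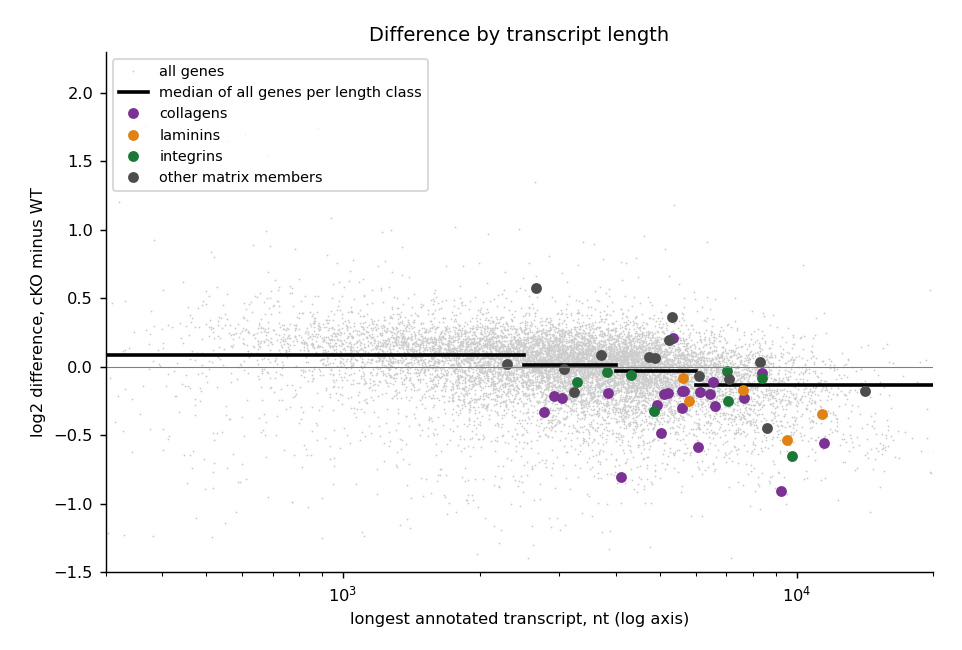
Log2 difference between cKO and WT (vertical axis) against the longest annotated transcript in nt (horizontal log axis), for all genes (grey) and the members (coloured by family). Black bars are the medians of all genes per length class, which run from 0.09 to −0.13, and most collagens lie below the bar of their class; 2 genes above and 7 below the drawn range are not shown.

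Genes that act on or beside this matrix were described in the same way. Their counts stand against 10.6% of all genes called with the block and 7.59% called lower. Of 22 measured genes of collagen maturation 0 rose and 1 fell with the block, with a median of 0.04. The 1 was P3h3, a collagen prolyl hydroxylase, at 16.4, 24.2, 12.8 and 8.31 FPKM in cKO libraries, against 24.7, 37.1, 20.9 and 16.4 FPKM in WT libraries (−0.70, adjusted p = 0.00344). Of 17 genes of the dystroglycan complex, a laminin and agrin receptor, 0 rose and 1 fell (median −0.06). This was Dmd, the X-linked gene of dystrophin, at 42.3, 49.5, 25.9 and 36.6 FPKM in cKO libraries, against 65.5, 78.2, 54.1 and 47.5 FPKM in WT libraries (−0.67, adjusted p = 0.00822). In P3h3 and Dmd only cKO library 3 reached into the WT range, and both passed without any 1 pair. After the length and GC correction P3h3 passed (−0.70, adjusted p = 0.00492) and Dmd did not (−0.36, adjusted p = 0.0698). With the TEC covariate, without the block, P3h3 differed by −0.15 and Dmd by −0.37. In the libraries with Xist, without the block, they differed by −0.25 and −0.39. P3h3 had its libraries in the order of the TEC and sense intronic mean in both groups, as did 3.33% of all genes. The part of unspliced RNA and of sex in these falls was not tested.

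Of 21 focal adhesion genes 0 rose and 1 fell (median −0.04): Tln2, a talin that links integrins to actin (−0.35, adjusted p = 0.0193). It passed in 1 of 4 fits without a pair and not after the length and GC correction (−0.09, adjusted p = 0.411). Of 6 genes of the neural matrix 0 rose and 1 fell (median −0.07): Ptprz1, a receptor phosphatase that carries chondroitin sulfate (−0.31, adjusted p = 0.0310). It passed in 0 of 4 fits without a pair and not after the correction (−0.20, adjusted p = 0.144). Of 13 matrix proteases and inhibitors 1 rose and 1 fell (median −0.05). Reck, an inhibitor of metalloproteinases, fell (−0.42, adjusted p = 0.0260), but passed in 0 of 4 fits without a pair. After the correction it passed (−0.40, adjusted p = 0.0352). Timp1, another inhibitor, was at 1.95, 23.3, 4.78 and 1.71 FPKM in cKO libraries, against 0.435, 1.30, 3.34 and 0.339 FPKM in WT libraries (1.74, adjusted p = 0.0479), with cKO library 3 far above the rest. It passed in 1 of 4 fits without a pair and not after the correction (1.64, adjusted p = 0.0801). Timp1 is X-linked, and in the libraries with Xist, without the block, it differed by 2.32. With the TEC covariate, without the block, the differences were −0.04 for Tln2, −0.11 for Ptprz1, −0.37 for Reck and 2.40 for Timp1. The part of sex and of unspliced RNA in these values was not tested. Of 13 other matrix glycoproteins and 13 genes of the TGF-beta pathway 0 passed in either direction, with medians of −0.03 and −0.01.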

How the data were processed

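RNA bound to Müller cell ribosomes was sequenced in 8 mouse retina libraries, 4 cKO and 4 WT, from poly(A)-selected RNA with a directional kit, per the labels. The authors deposited 1 table of FPKM values for 12339 genes. STAR and edgeR are named, and the builds GRCm38 and mm10, in the submitters' processing notes, with neither version nor role. Fragment counts, annotation and gene filter are not given in the sources used here, so depth is unknown and no counting interval was computed.

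The scale log2(FPKM + 0.5), which understates changes of low genes, was used with limma 3.58.1 (R 4.3.3; moderated test with a mean trend, two-sided, Benjamini-Hochberg over all genes, threshold 0.05). The main fit, without a block, left 6 residual degrees of freedom and the alternative with the replicate block 3. After removal of group means, equal numbers correlated across genes at 0.261 to 0.591 and unequal ones at -0.479 to 0.211, so by the set rule (every pair above 0.1) the numbers paired the libraries. Whether libraries were separate animals is not stated.

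Members and lists were chosen with earlier results of these data known. Named in full were members past the threshold in either fit, the 3 highest and the 2 with the smallest p of each family, and up to 4 called genes of each other list. Other members given in every library, the ratios between genes and the order of libraries were chosen after their values were seen. Gene positions and transcript lengths came from GENCODE release M21 on GRCm38 (12327 of 12339 IDs found). Alternatives were other pseudocounts, a filter, TPM and median-of-ratios scaling and leaving out libraries or pairs. The length and GC correction, the TEC covariate (with and without the block), the Xist libraries and the block with other settings were chosen after seeing the data. The fits were tested on simulated data.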

Additional observations from a re-analysis of the deposited data

Results flagged for a closer look

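In 5 of the 98 groups of 4 values (49 members in 2 genotypes) 1 library stood apart from the other 3, by a gap to the nearest library that passed Dixon's limit; chance gives this in about 1 of 20 groups. Loxl2 was at 21 FPKM in cKO library 3, against 14.2 to 14.5 FPKM in the other cKO libraries. Timp2 was at 128 FPKM in cKO library 4, against 102 to 106 FPKM. Lamc1 was at 7.09 FPKM in cKO library 5, against 11.5 to 12.1 FPKM. Lamb1 was at 2.69 FPKM in WT library 5, against 4.15 to 4.24 FPKM in the other WT libraries. Col16a1 was at 4.21 FPKM in WT library 3, against 1.36 to 1.84 FPKM.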

How the results depend on the processing

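Without the block, 0 members and 0 genes passed under each other pseudocount, filter, scaling, correction and covariate and without any 1 library, except 1 gene, no member, in the libraries with Xist. With the replicate block 1305 genes and 5 members passed. The counts were 1285 and 5 with a pseudocount of 0.1, 1320 and 6 with 1, 1276 and 4 with a mean FPKM of at least 5 (33 members tested), 1350 and 6 with TPM scaling, 1300 and 5 with median-of-ratios scaling, and 922 and 4 with the length and GC correction. Without 1 pair the counts were 402 to 821 genes (606 without pair 3, 524 without pair 4) and 2 to 5 members. The added calls were Col11a2, Bgn or Spock2 as given above. Family medians depended on the setting. Without 1 library the median ran from -0.217 to -0.0839 over all members, -0.322 to -0.153 for collagens, -0.385 to -0.168 for laminins, -0.175 to -0.0336 for integrins and -0.0292 to 0.118 for the other matrix genes, which turned sign also with TPM scaling (-0.0056). The value nearest 0 was that without WT 4 for integrins and that without cKO 5 over all members. With the length and GC correction the medians were -0.101, -0.177, -0.0935, -0.0742 and 0.0891 in this order, and in the Xist libraries the laminin median was -0.0397. With the block and the TEC covariate together (median SE of members 0.940), 0 genes passed and the medians were 0.0067, -0.56, -0.373, 0.649 and 0.426; Col6a1 was at 0.964, Agrn at 0.0067, Itgav at 1.36, Itgb1 at 1.2, Lama5 at 1.76 and Nfe2l2 at 0.814.

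The number of members that changed sign was 15 with the TEC covariate, 11 in the Xist libraries, 11 without cKO 5, 7 with the length and GC correction and 2 to 5 without any other library. Of the genes named by rule, over the fits without 1 library, Itgb1 ran from -0.134 to 0.0582, Lamb2 from -0.197 to 0.0371, Lamc1 from -0.237 to 0.0088, Sparc from -0.108 to 0.179 and Fn1 from -0.158 to 0.206. With the block, Itgb1 was at 0.0165 and 0.0362 without pair 4 or 5, and Sparc at -0.043 and -0.0095 without pair 1 or 3. With the TEC covariate Itgb1 was at 0.00091, Lamb2 at 0.0906, Lamc1 at 0.0278 and Sparc at -0.047, and in the Xist libraries Itgb1 was at 0.013 and Sparc at -0.0425. TPM scaling gave -0.0103 for Sparc and -0.00084 for Fn1, and the length and GC correction -0.0235 for Sparc, with and without the block. The cause was not tested. The unknown depth limits what can be said of the 16 of 49 members below 5 FPKM.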
